A study of Mus musculus with 12 samples.

Results

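Gene expression in naive B cells lacking miR-146a was compared with that in wild-type (WT) naive B cells, gene by gene and library by library. The members are the 6 libraries labelled as B cells of mice that were not immunized, 3 WT and 3 miR-146a KO, out of 12 libraries in the series. Each gene is represented by its most highly expressed transcript of at least 200 bases. All mice were of the C57BL/6 strain. In the miR-146a KO mice, called B-KO, floxed alleles (miR-146a fl/fl) were deleted by CD21-cre, whose expression follows the complement receptor gene Cr2 and is confined to mature B cells among B lineage cells. The controls were WT littermates, and whether they carried cre or a floxed allele was not stated. Spleen cells of unimmunized mice were sorted on B220 alone, a gate that can also admit GC B cells, plasmablasts and B220+ cells of other lineages. The 6 other libraries, from mice of both genotypes that had received sheep red blood cells (SRBC), hold B220+PNA+GL7+ germinal center (GC) B cells. They serve here as a scale for GC genes and for a single test that sets both cell types against each other. They also enter the choice of transcript, the filter on low values and the spread from which every SE and p of the main test was taken. The replicates were described as biological, 3 per group, and the study used young adult mice unless it stated otherwise.

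miR-146a is a small RNA whose gene is switched on by NFκB and which dampens NFκB signaling in turn, by pairing with the 3′ UTRs of signal adaptors such as Traf6 and Irak1. Naive B cells are resting cells that circulate through the follicles of spleen and lymph nodes. When a naive B cell meets antigen and receives T cell help through CD40, it can divide, enter a GC, mutate its antibody genes and later become a memory B cell or a plasma cell.

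The mature sequence of miR-146a and that of its paralogue miR-146b are shown first, because the sites counted below are read from the seed that both share. Sequences are those of RefSeq on GRCm38.p6, written 5′ to 3′, and capitals mark the seed, bases 2 to 8.
mmu-miR-146a-5p: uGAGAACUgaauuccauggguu
mmu-miR-146b-5p: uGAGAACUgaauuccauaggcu
The first lies at chr11:43374435-43374456 on the minus strand and the second at chr19:46342790-46342811 on the plus strand. Both are 22 bases long and differ at 2 positions counted from the 5′ end, G18A and U21C, both outside the seed.

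Sites for this seed in the 3′ UTRs of reported target genes are shown next, from the CD40 and NFκB pathways and from Numb, since a transcript that holds such a site can pair with the seed. Each line gives the 28 bases around a site from the longest GENCODE vM21 3′ UTR of the gene (GRCm38), as DNA on its strand. The match to bases 2 to 8 of the miRNA followed by an A, an 8mer, is in capitals.
Traf6, chr2:101697941-101697968, plus strand: gttaccgctctggtgttgAGTTCTCAtt
Traf6, chr2:101698005-101698032, plus strand: tgatccctggaaggcttaAGTTCTCAag
Irak1, chrX:74015391-74015418, minus strand: ctcagactcagaggtcaaAGTTCTCAtg
Irak1, chrX:74015375-74015402, minus strand: aaagttctcatgcttggaAGTTCTCAta
Rel, chr11:23737000-23737027, minus strand: tgaaattatttttttttaAGTTCTCAag
Chuk, chr19:44073486-44073513, minus strand: cctttctaaaatctgaacAGTTCTCAtt
Numb, chr12:83794811-83794838, minus strand: acctagaatattttaaatAGTTCTCAat
The Traf6 3′ UTR of 4170 bases held 4 such 8mers, that of Irak1 (1526 bases) held 2, and that of Rel (5418 bases) held 1 beside 5 matches of 7 bases. The 3′ UTRs of Relb and Cd40 held no match of 7 bases or more. These longest 3′ UTRs can reach beyond the transcript whose RPKM is given below. The Rel transcript used ends at chr11:23741729, short of the 8mer shown and of most of its matches of 7 bases. The Traf6 transcript used ends at chr2:101700974, short of the 8mer at chr2:101701341-101701368. A match is a description of the letters in a 3′ UTR and not a measured binding site.

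The libraries were checked before the comparison. The row of the miR-146a gene in the deposited table, Mir146 (mm10, chr11:43374397-43374461), held 2, 0 and 0 reads in the WT naive libraries and 0, 0 and 0 in the B-KO naive libraries. The row of Mir146b held 0 reads in all 6. The row is shorter than 200 bases and a mature miRNA carries no poly-A tail, so the deletion itself could not be checked here. Ms4a1, which encodes the B cell surface protein CD20, lay between 5427 and 8634 RPKM (reads per kilobase per 10000000 assigned reads, the scale of the deposited table) in the 6 libraries, and Cd79a, a B cell receptor component, between 5042 and 6399. The T cell marker Cd3e did not exceed 1.29 RPKM and the fibroblast collagen Col1a1 did not exceed 0.158. Other markers of non-B cells were present. The T cell markers Cd4 and Cd8a lay at 11.0 to 28.3 and 3.21 to 7.67 RPKM, and the NK cell marker Ncr1 at 18.3 to 51.6. Siglech, a marker of plasmacytoid dendritic cells, lay at 53.2 to 134 RPKM and the globin gene Hbb-b1 at 195 to 649. Reads assigned to transcripts numbered 30494141 to 34802700 in the WT libraries and 22945634 to 28251566 in the B-KO libraries, so that 1 read on a transcript of 1 kb was worth between 0.287 and 0.436 RPKM.

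No gene passed the test for a difference between B-KO and WT naive B cells. Of 22808 genes with a usable row, 13167 reached 1 RPKM in 3 or more of the 12 libraries and were tested, and 9641 were not. With limma on log2(RPKM + 1) and an adjusted p under 0.05, 0 genes were higher and 0 were lower in B-KO cells (0% in each direction), and limma voom on recovered reads also called 0. The spread in these fits was estimated from naive and GC libraries together. A limma fit of the 6 naive libraries alone called 0 genes higher and 0 lower. At an unadjusted p under 0.05, 535 genes (4.06% of those tested) were higher and 70 (0.532%) were lower in B-KO cells. All 3 B-KO libraries lay above all 3 WT libraries for 836 genes (6.35%) and below them for 395 (3%). The log2 fold change was above 0 for 7504 genes (57%), with a median over all genes of 0.02. This share depended on how libraries were put on a common scale, being 50.4% after median-of-ratios scaling and 43.1% after quantile normalization. The plot of level against fold change shows a cloud around 0 from which GC, mitosis and plasma cell genes stand out on the upper side.

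**Figure D1:**
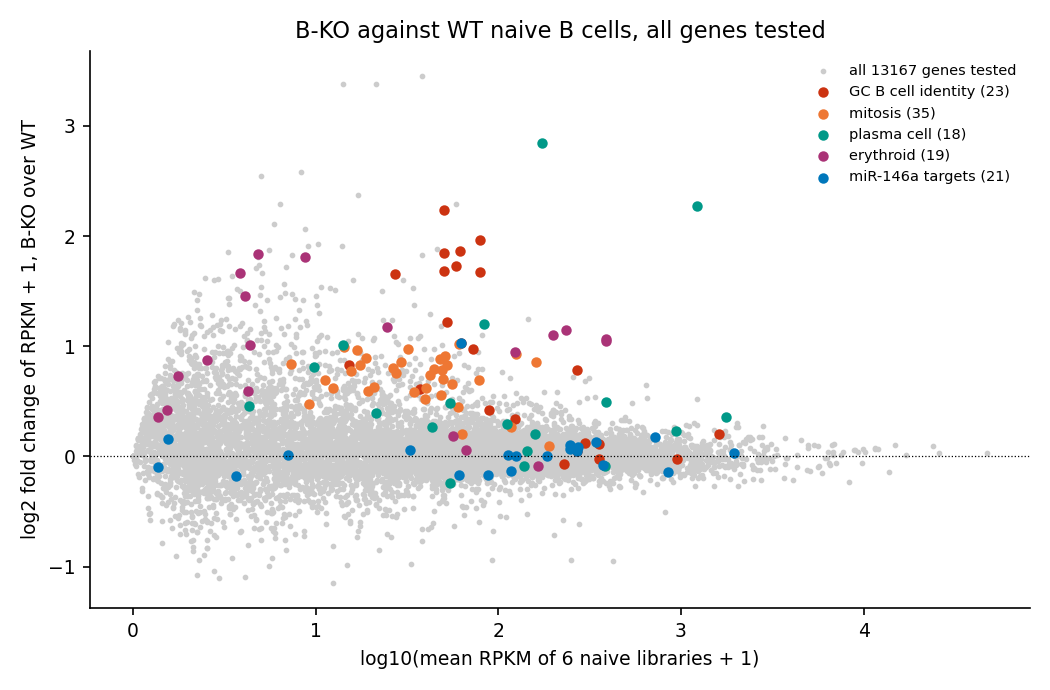
Each point is a gene tested, placed by the log10 of its mean RPKM + 1 over the 6 naive libraries (x axis) and by its log2 fold change of RPKM + 1, B-KO over WT (y axis), with members of 5 gene lists in color. Genes of GC B cell identity (median 0.83), mitosis (0.76) and erythroid cells (1.01) lie mostly above 0, and miR-146a targets (0.02) lie around it, while no gene passed the adjusted threshold.

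The result rested on which libraries entered it. Without B-KO replicate 3, 55 genes (0.418%) were called higher and 0 lower, and without B-KO replicate 1 a single gene was called, Tgtp1, which encodes an interferon-induced GTPase. Leaving out B-KO replicate 2 or any WT library gave 0 calls. With array quality weights, which down-weight libraries that deviate from their group, 128 genes (0.972%) were called higher and 4 (0.0304%) lower, with a weight of 4.81 on B-KO replicate 2 against 0.563 and 0.788 on replicates 1 and 3. Of the 55 and the 132 genes called under these settings, 40 were called by both (72.7% and 30.3%). The B-KO libraries thus differed among themselves. Among 10112 genes that reached 10 RPKM in 3 or more naive libraries, 118 were at least 2-fold above every WT library in B-KO replicate 1, 25 in replicate 2 and 12 in replicate 3. A WT library set against the other 2 gave 4, 8 and 6. Genes can reach the minimum through the B-KO libraries alone, which favors higher counts in those libraries. How much this added was not tested. Gstt1 and Prg2, the 2 genes at least 2-fold above in all 3 B-KO libraries, stayed under 10 RPKM in every WT library. At least 2-fold below were 29, 1 and 0 genes in the B-KO libraries and 28, 3 and 5 in the WT libraries, so that WT replicate 1 stood apart downward as B-KO replicate 1 did. Of the 25 in replicate 2, 19 (76%) were also among the 118 of replicate 1 (16.1% of those).

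Transcripts of the reported miR-146a targets lay close to their WT levels. Traf6, the ubiquitin ligase that carries signals from CD40 and Toll-like receptors, stood at 112, 110 and 112 RPKM in the WT libraries and at 112, 112 and 112 in the B-KO libraries. The groups overlapped, and its log2 fold change was 0.01 ± 0.09 (SE). Irak1, a kinase downstream of Toll-like receptors, had 313, 372 and 293 RPKM in WT and 388, 339 and 340 in B-KO libraries, again with overlap (0.13 ± 0.10). Chuk, which encodes the kinase IKKα, was at 229, 243 and 237 RPKM in WT and at 243, 268 and 250 in B-KO cells. Its B-KO libraries lay above the WT libraries, replicate 1 by less than 0.1 RPKM, with a log2 fold change of 0.10 ± 0.06 and an adjusted p of 1. Numb, an inhibitor of Notch signaling, was the reverse, at 62.4, 64.7 and 63.6 RPKM in WT and 57.1, 54.5 and 57.6 in B-KO cells (log2 fold change -0.17 ± 0.09). All 3 B-KO libraries were below all 3 WT libraries although its 3′ UTR holds an 8mer.

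The NFκB subunits and Cd40 behaved alike. Rel, which encodes c-Rel, had 366, 412 and 370 RPKM in WT and 338, 354 and 398 in B-KO libraries, and Relb had 249, 284 and 253 in WT and 297, 257 and 283 in B-KO libraries. Neither separated the genotypes, at log2 fold changes of -0.08 ± 0.32 and 0.09 ± 0.13. Cd40 itself was at 483, 561 and 567 RPKM in WT and 494, 537 and 579 in B-KO cells, with a log2 fold change of -0.00 ± 0.09. Of 25 genes listed as reported miR-146a targets, 21 were tested, 14 had a log2 fold change above 0 and 1 an unadjusted p under 0.05. Over all genes tested 57% were positive and 4.06% were higher at an unadjusted p under 0.05. The list median was 0.02, equal to that of all genes at 2 decimals. After quantile normalization the medians of the list and of all genes were -0.0095 and -0.022. The 1 was Fas, the death receptor, which is also a GC gene and is given with those below.

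**Figure D2:**
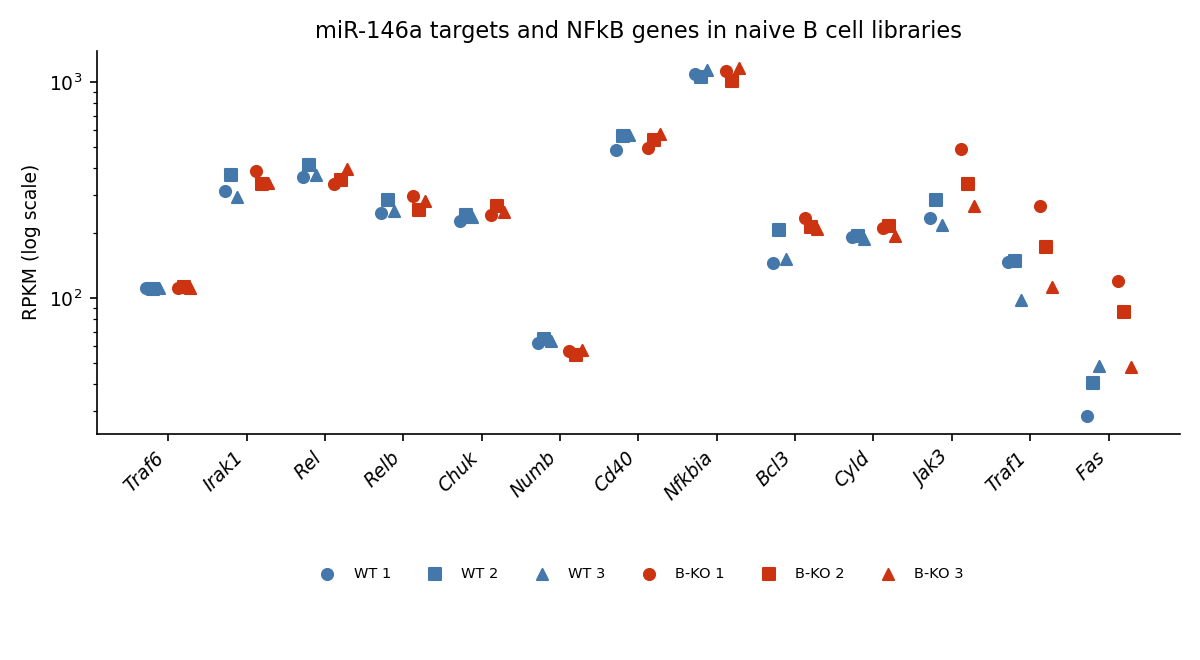
RPKM on a log scale (y axis) of 13 miR-146a targets and genes of NFκB and CD40 signaling (x axis) in each naive library, WT in blue and B-KO in red. Traf6 lies at 110 to 112 in all 6 libraries, and of the genes drawn Fas and Traf1 spread most among the B-KO libraries, from 47.9 to 120 and from 113 to 268.

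Seed matches were then counted in every 3′ UTR. Of the 13167 genes tested, 12250 (93%) had an annotated 3′ UTR, and the motifs were searched on the strand of the gene as AGTTCTCA (8mer), AGTTCTC (7mer-m8), GTTCTCA (7mer-A1) and GTTCTC (6mer), each gene being put under its longest match since the shorter motifs lie within the longer ones. An 8mer was the best site of 535 genes (4.37% of all 3′ UTRs), a 7mer-m8 of 934 (7.62%), a 7mer-A1 of 945 (7.71%) and a 6mer of 1512 (12.34%). The median log2 fold change was 0.0081 for genes with an 8mer, 0.0083 with a 7mer-m8, 0.0080 with a 7mer-A1 and 0.0148 with a 6mer. Genes without any match had a median of 0.0248 (8324 genes), so that the classes with a site lay slightly below and not above the class without. Of the 1469 genes with an 8mer or 7mer-m8, 53.1% had a positive fold change, against 58.7% of the genes without a match, and 5.31% had all B-KO libraries above all WT libraries, against 6.70%. Genes with a site had longer 3′ UTRs, with a median of 2606 bases against 746. Among genes with a 3′ UTR of at least 1000 bases the medians were 0.0057 with an 8mer or 7mer-m8 and 0.0103 without a match.

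**Figure D3:**
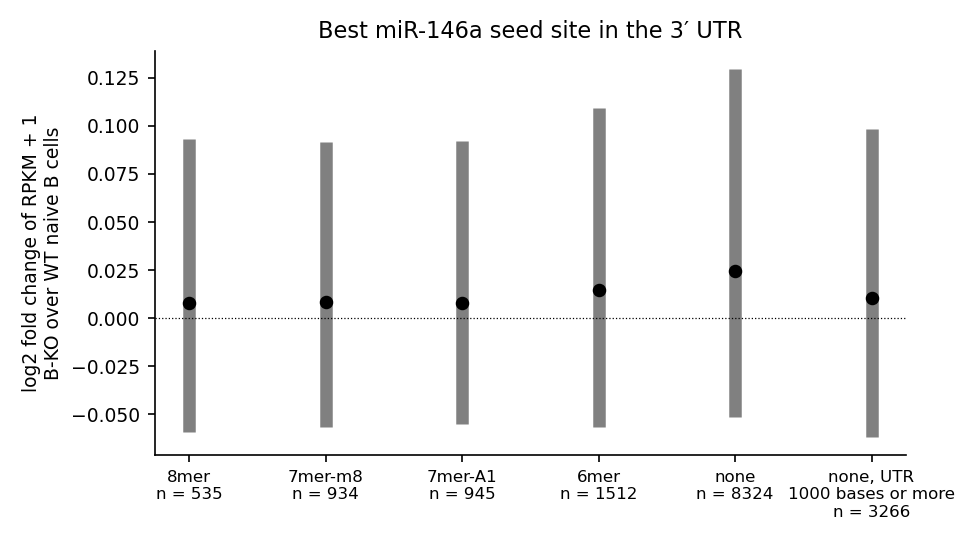
Median (point) and middle 50% (bar) of the log2 fold change of RPKM + 1, B-KO over WT naive B cells (y axis), for genes grouped by their best miR-146a seed match (x axis, with the number of genes), the last class being genes without a match whose 3′ UTR has at least 1000 bases. The medians run from 0.0080 to 0.0248 and the bars cover nearly the same range in every class.

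Genes of the pathways that miR-146a is known for gave the same picture. Over all genes tested 57% were positive, 4.06% were higher at an unadjusted p under 0.05 and 6.35% separated with B-KO above WT. Of 17 NFκB subunits and inhibitors, all tested, 14 had a positive log2 fold change, none had an unadjusted p under 0.05, and the median was 0.04. Bcl3, an IκB protein that acts in the nucleus, had 146.4, 206 and 152 RPKM in WT and 234, 214 and 210 in B-KO libraries, with all B-KO libraries above all WT libraries (0.39 ± 0.19). Cyld, the deubiquitinase that limits NFκB, also separated, at 192, 194 and 188 RPKM against 211, 216 and 194 (0.11 ± 0.06). Nfkbia, which encodes IκBα and is itself induced by NFκB, was at 1085, 1062 and 1141 RPKM in WT and 1128, 1014 and 1161 in B-KO cells, which gives no separation (0.00 ± 0.30). The SD of its RPKM was 40.5 and 77.2 in WT and B-KO naive libraries but 328 and 336 in GC libraries, which enter the SE. In the CD40 pathway, 12 of 22 tested genes were positive and the median was 0.01, with -0.011 after median-of-ratios scaling. Jak3, a kinase bound to CD40 and cytokine receptors, had 235, 285 and 217 RPKM in WT and 492, 339 and 266 in B-KO libraries and was the 1 member with an unadjusted p under 0.05 (log2 fold change 0.53 ± 0.22, adjusted p = 1). The B-KO library of replicate 3 lay within the WT range. Of 22 Toll-like receptors, adaptors and IRAK kinases, 12 were positive and the median was 0.05. At an unadjusted p under 0.05, 1 member was higher and 1 lower, both with separated groups. The lower one, Tlr1, which pairs with TLR2 at the cell surface, stood in the B-KO libraries at 549, 691 and 648 RPKM, against 735, 736 and 706 in WT (-0.21 ± 0.08). For 21 immediate early genes, which respond to stimulation within minutes, the median was 0.10, and -0.019 without B-KO replicate 3.

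Among the lists of B cell genes the largest median was that of GC B cells, and B-KO replicates 1 and 2 were the highest libraries. Of 23 genes listed for GC B cell identity, all tested, 20 had a positive log2 fold change with a median of 0.83. An unadjusted p under 0.05 was found for 13, and 7 had all B-KO libraries above all WT libraries. Over all genes tested 57% were positive, 4.06% were higher at an unadjusted p under 0.05 and 6.35% separated with B-KO above WT. Per library, the median difference from the WT mean was 1.54 in B-KO replicate 1, 0.74 in replicate 2 and 0.27 in replicate 3, against -0.27, 0.09 and 0.21 in the WT libraries. At least 2-fold above every WT library were 12 of the 23 genes in B-KO replicate 1, 7 in replicate 2 and 0 in replicate 3, and 7 were at least 2-fold below both other WT libraries in WT replicate 1. Mef2b, a transcription factor upstream of Bcl6, had 11.8, 43.5 and 30.5 RPKM in WT and 247, 92.8 and 44.9 in B-KO libraries. All B-KO libraries were above the WT libraries, replicate 3 only just (1.96 ± 0.53, adjusted p = 0.753). S1pr2, a receptor that keeps cells in the GC, stood at 8.28, 29.3 and 27.2 RPKM in WT and 196, 79.5 and 23.1 in B-KO libraries. B-KO replicates 1 and 2 were above every WT library and replicate 3 was within the WT range (1.86 ± 0.62, adjusted p = 0.922).

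Other surface and signaling genes of GC B cells were also highest in B-KO replicates 1 and 2. Gcsam, a GC-specific signaling protein, had 3.49, 19.2 and 19.03 RPKM in WT and 176, 62.1 and 16.02 in B-KO libraries (2.24 ± 0.77). Fas stood at 28.5, 40.3 and 48.5 RPKM in WT and 120, 86.2 and 47.9 in B-KO libraries (1.03 ± 0.28). In both genes B-KO replicate 3 fell within the WT range. Nt5e, which encodes the ectonucleotidase CD73, was the GC gene of smallest p, at 9.46, 11.3 and 11.6 RPKM in WT and 65.3, 44.1 and 16.1 in B-KO libraries (1.66 ± 0.36, adjusted p = 0.579). Eaf2, an elongation factor partner, had 18.5, 28.4 and 46.6 RPKM in WT and 86.5, 81.3 and 46.8 in B-KO libraries (1.22 ± 0.29). Both separated the genotypes, Eaf2 by a narrow margin. Bcl6, the GC master regulator that resting B cells also transcribe, did not follow, at 195, 274 and 234 RPKM in WT and 242, 209 and 214 in B-KO cells (-0.07 ± 0.13). Irf8 and Lmo2, the 2 members of highest level, had log2 fold changes of 0.20 ± 0.12 and -0.02 ± 0.11.

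Sorted GC B cells gave a scale for 16 of the 23 members, those at least 4-fold higher in WT GC than in WT naive B cells. For these 16 the median level was 2.07%, 3.08% and 3.97% of the WT GC mean in the WT naive libraries. The choice of members by itself makes these WT shares low. The median was 16.1%, 6.89% and 3.22% in the B-KO naive libraries, with replicate 3 inside the WT range. Not every member was higher in GC B cells. Lmo2 averaged 956 RPKM in WT and 945 in B-KO naive libraries, against 488 in WT GC libraries. In bulk libraries a larger number of cells of a type and more RNA per cell cannot be told apart. Without B-KO replicate 3, 4 of the 23 genes (Fas, S1pr2, Efnb1 and Nt5e) passed the adjusted threshold and the list median was 1.18. Without B-KO replicate 1 the median was 0.50, none of the 23 passed and 8 had an unadjusted p under 0.05, and without WT replicate 1 these values were 0.65, none and 7.

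**Figure D4:**
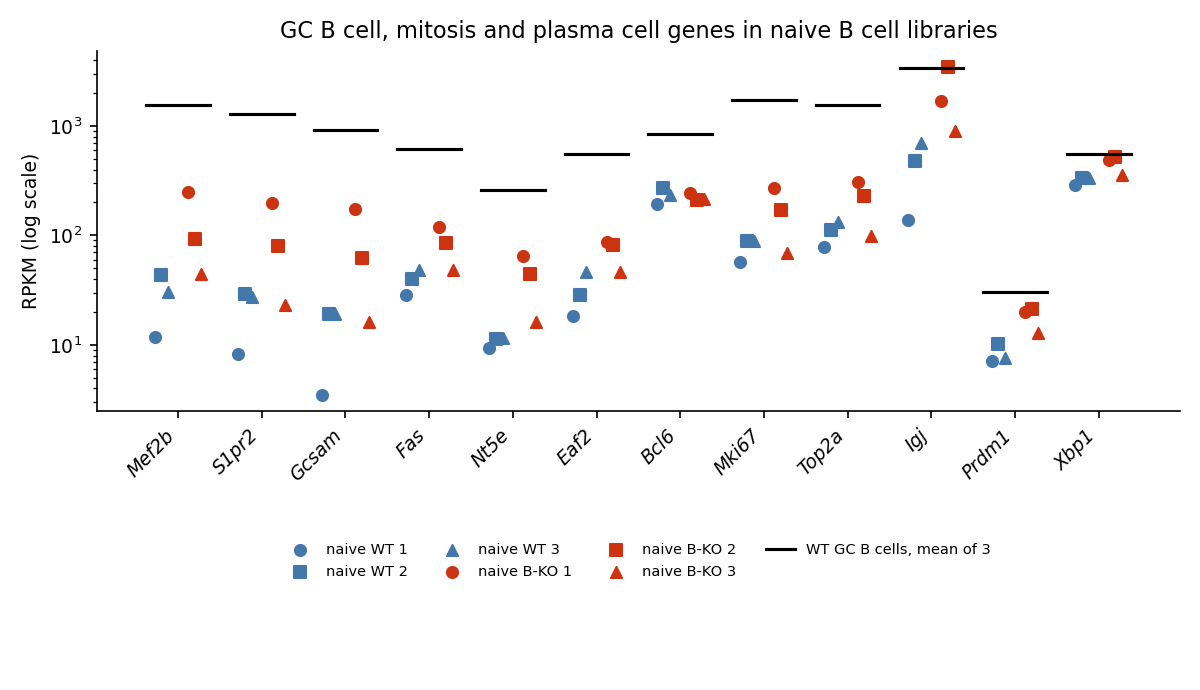
RPKM on a log scale (y axis) of GC B cell, mitosis and plasma cell genes (x axis) in each naive library, WT in blue and B-KO in red, with the mean of 3 WT GC B cell libraries as a black line. For S1pr2, B-KO replicates 1 and 2 reach 196 and 79.5 against at most 29.3 in WT naive libraries, while Bcl6 does not separate the genotypes.

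Cell cycle genes shifted in the same libraries. All 35 tested genes of mitosis had a positive log2 fold change, with a median of 0.76, but for none of them did the groups separate. The 8 with an unadjusted p under 0.05 became 0 without B-KO replicate 1, 1 without B-KO replicate 2 or WT replicate 1, 3 without WT replicate 2, and 1 with voom or the replicate block, whereas leaving out B-KO replicate 3 gave 31. The library medians were 1.33 and 0.92 above the WT mean in B-KO replicates 1 and 2 and -0.05 in replicate 3. Mki67, the proliferation antigen Ki-67, had 57.7, 88.1 and 88.8 RPKM in WT and 272, 170 and 68.6 in B-KO libraries. Top2a, a topoisomerase that untangles replicated chromosomes, had 78.5, 111 and 134 RPKM in WT and 306, 231 and 98.6 in B-KO libraries. Both were highest in B-KO replicate 1 and within the WT range in replicate 3, with log2 fold changes of 0.93 ± 0.41 and 0.85 ± 0.40. All 35 genes of DNA replication were positive as well, with a median of 0.42, 14 at an unadjusted p under 0.05 and 4 with separated groups. The shares over all genes tested were 57%, 4.06% and 6.35%. The 14 became 0 without B-KO replicate 1 or WT replicate 1, 4 without B-KO replicate 2, 5 without WT replicate 2, 4 with voom and 2 with the replicate block, whereas leaving out B-KO replicate 3 gave 26. Rfc4, a clamp loader subunit, was at 62.4, 74.3 and 91.6 RPKM in WT and 115, 103 and 102 in B-KO libraries, and Tk1, thymidine kinase, at 72.3, 107 and 80.4 in WT and 145.8, 124 and 108 in B-KO libraries. Of these Rfc4 separated clearly and Tk1 by a narrow margin (log2 fold changes 0.50 ± 0.18 and 0.55 ± 0.20). Of the mitosis genes, 34 were at least 4-fold higher in WT GC than in WT naive B cells. Relative to the WT GC mean, these stood at a median of 4.21% to 6.91% in WT naive libraries and at 16.6%, 12.1% and 5.78% in the B-KO naive libraries. The mitosis and replication medians were 0.41 and 0.18 without B-KO replicate 1. Without B-KO replicate 3 they were 1.12 and 0.59, and 1 replication gene, Cdc6, passed the adjusted threshold.

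Genes of antibody secretion were higher in B-KO replicates 1 and 2, with replicate 2 ahead. Of 18 plasma cell genes tested, 15 had a positive log2 fold change with a median of 0.38, 6 had an unadjusted p under 0.05 and 7 separated with B-KO above WT. The shares over all genes tested were 57%, 4.06% and 6.35%. The list median was 0.25 without WT replicate 1 or B-KO replicate 2. The median was 0.41 above the WT mean in B-KO replicate 1, 0.71 in replicate 2 and 0.11 in replicate 3. In the WT libraries it was -0.14, 0.03 and 0.14, so that B-KO replicate 3 was within the WT range. Igj, the older symbol of the J chain that links IgM and IgA, had 137, 481 and 696 RPKM in WT and 1688, 3443 and 900 in B-KO libraries. All B-KO libraries were above all WT libraries, although the WT libraries themselves spread over several fold (2.27 ± 0.56, adjusted p = 0.699). Prdm1, which encodes Blimp-1, the factor that drives plasma cell fate, was low throughout, at 7.09, 10.2 and 7.66 RPKM in WT and 19.9, 21.4 and 12.8 in B-KO libraries (1.02 ± 0.51). Xbp1, a transcription factor of the secretory program, had 291, 332 and 337 RPKM in WT and 485, 526 and 358 in B-KO libraries (0.49 ± 0.16). Both separated the genotypes, whereas Sdc1, which encodes the plasma cell surface marker CD138, did not, at 50.1, 52.9 and 65.3 RPKM in WT and 27.5, 59.3 and 63.2 in B-KO libraries. Derl3, a factor of protein disposal from the endoplasmic reticulum, had 40.5, 48.9 and 52.3 RPKM in WT and 115, 172 and 66.3 in B-KO libraries (1.21 ± 0.31). In the unfolded protein response list 19 of 22 tested genes were positive with a median of 0.17, among them the chaperone cofactor Sdf2l1 at 108, 111 and 128 RPKM in WT and 192, 168 and 143 in B-KO libraries (0.53 ± 0.15). Without B-KO replicate 3, 2 of the 18 plasma cell genes, Slpi and Derl3, passed the adjusted threshold.

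Genes of memory, B1 and T-bet-positive B cells had a positive median in each B-KO library. Of 22 tested, 20 had a positive log2 fold change with a median of 0.45, and 7 separated the groups with B-KO above WT. Over all genes tested 57% were positive and 6.35% separated in that direction. The library medians were 0.49, 0.58 and 0.24 above the WT mean in B-KO replicates 1, 2 and 3, against -0.15 to 0.07 in the WT libraries. At least 2-fold above every WT library were 8 genes in B-KO replicate 1, 1 in replicate 2 and 0 in replicate 3. Zbtb32, a transcriptional repressor of memory B cells, was at 25.6, 30.4 and 29.3 RPKM in WT and 83.5, 60.9 and 55.5 in B-KO libraries. Cd80, the costimulatory ligand that marks memory B cells, was at 13.2, 12.9 and 14.9 RPKM in WT and 31.9, 27.4 and 21.1 in B-KO libraries. In both genes every B-KO library was well above every WT library, with log2 fold changes of 1.18 ± 0.31 and 0.91 ± 0.25 and adjusted p of 0.75 and 0.754. Tbx21, which encodes T-bet, had 17.9, 27.0 and 17.6 RPKM in WT and 75.2, 52.5 and 21.8 in B-KO libraries, and Cxcr3, a chemokine receptor controlled by T-bet, had 29.6, 41.0 and 37.5 in WT and 115, 78.1 and 34.8 in B-KO libraries. For both, B-KO replicate 3 was within the WT range. Vim, an intermediate filament gene and the member of highest level, had 1380, 1275 and 1334 RPKM in WT and 1314, 1295 and 1578 in B-KO libraries, with overlap (0.06 ± 0.25). Apoe, which encodes a lipid carrier and came next in level, had 1126, 1032 and 841 RPKM in WT and 1495, 1549 and 1256 in B-KO libraries (0.52 ± 0.32). Without B-KO replicate 3, Nt5e and Tbx21 of this list passed the adjusted threshold.

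Genes of the resting state were near their WT levels. Of all 13167 genes tested, 5654 had a negative log2 fold change. Of 24 follicular B cell genes tested, 19 had a negative log2 fold change with a median of -0.05, and none had an unadjusted p under 0.05. The library medians were -0.23, -0.06 and 0.01 in B-KO replicates 1, 2 and 3. Fcer2a, which encodes the low affinity IgE receptor CD23, had 2943, 3027 and 2856 RPKM in WT and 2199, 2551 and 2929 in B-KO libraries. Pax5, the factor that maintains B cell identity, was lower in all B-KO libraries, at 1204, 1287 and 1237 RPKM in WT and 1031, 1104 and 1181 in B-KO cells. Their log2 fold changes were -0.21 ± 0.13 and -0.17 ± 0.09. Of 17 marginal zone genes, 12 were negative with a median of -0.10. Cr2, whose promoter drives the cre, was one of them, at 1891, 1659 and 1404 RPKM in WT and 1337, 1455 and 1302 in B-KO libraries, with overlap (-0.27 ± 0.24). Of 11 tested genes of transitional B cells, the newly formed cells that arrive from the bone marrow, 7 were negative with a median of -0.18 and library medians of -0.71, -0.08 and 0.16 in the B-KO libraries. With B-KO replicate 1 left out the list median was 0.13, and with WT replicate 3 left out it was 0.045. Cd93, their surface marker, was lowest in B-KO replicate 1, at 7.69 RPKM against 40.9 and 48.4 in the other B-KO libraries and 31.2, 37.6 and 56.0 in WT. Bmf, a trigger of apoptosis in the same list, was also lowest there, at 33.7 RPKM against 77.7 and 116 in the other B-KO libraries and 93.2 to 130 in WT (-0.68 ± 0.33). Of 20 quiescence genes, 14 were negative with a median of -0.06.

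**Figure D5:**
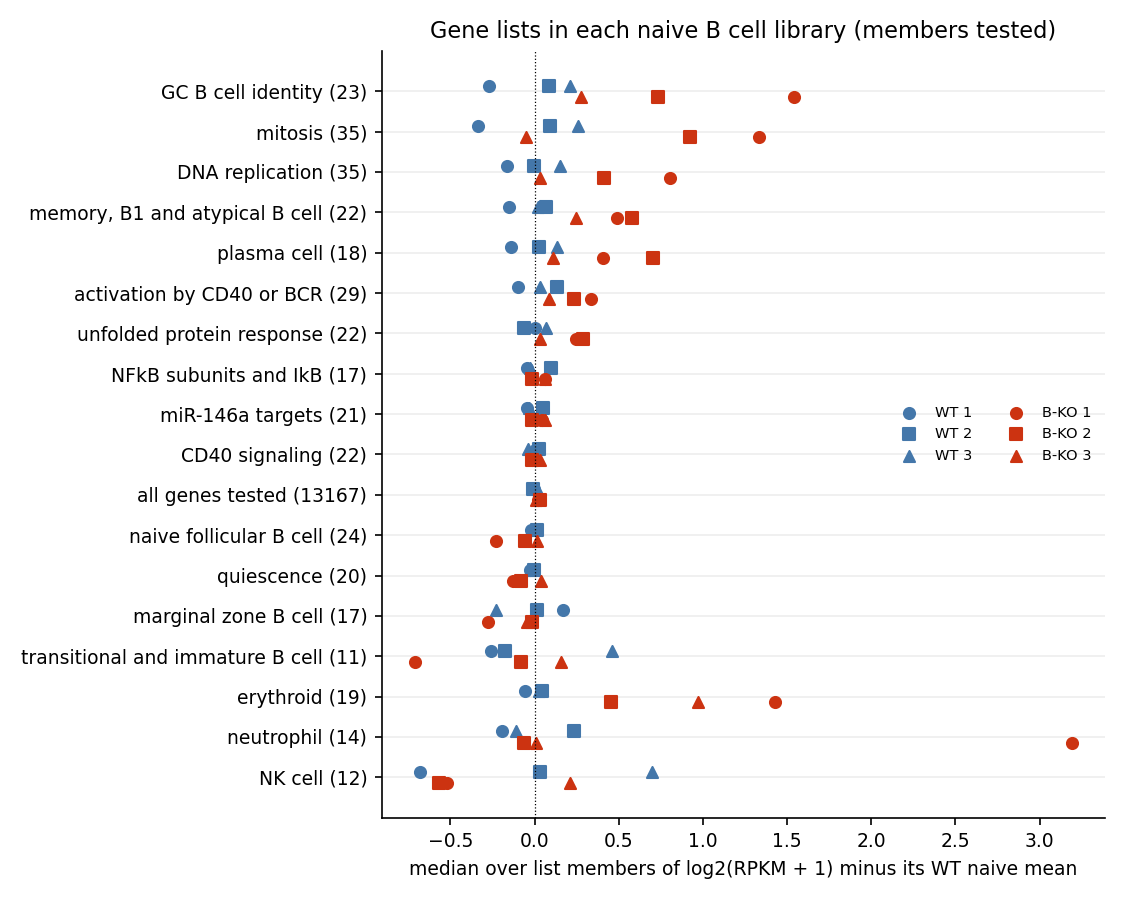
Median over the tested members of each gene list (rows, with their number) of log2(RPKM + 1) minus the mean of the 3 WT naive libraries (x axis), for each WT (blue) and B-KO (red) naive library. In GC identity, mitosis and replication lists B-KO replicates 1 and 2 lie to the right of all WT libraries and replicate 3 lies close to them, whereas in the erythroid list all 3 B-KO libraries lie to the right.

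The genes of smallest p were chosen from those at 10 RPKM or more in at least 3 naive libraries. Of the 10 with a positive fold change, Gstt1 (mm10, chr10:75783813-75798584), a glutathione transferase, came first, at 0.637, 5.30 and 2.17 RPKM in WT and 69.9, 28.5 and 16.5 in B-KO libraries. All B-KO libraries were at least 3-fold above the highest WT library, with a log2 fold change of 3.38 ± 0.54, an unadjusted p of 5.96e-05 and an adjusted p of 0.393. Lefty1, a secreted antagonist of Nodal signaling, had 4.72, 6.29 and 5.80 RPKM in WT and 17.9, 11.96 and 10.1 in B-KO libraries (1.09 ± 0.19). H2-Eb2, an MHC class II beta chain gene, had 415, 463 and 418 RPKM in WT and 580, 569 and 516 in B-KO libraries, which makes it the most highly expressed of the 10 (0.36 ± 0.07). Its B-KO libraries were all higher and close to each other. Kcnn4, the calcium-activated potassium channel of activated lymphocytes, had 59.6, 59.7 and 53.2 RPKM in WT and 128, 114 and 69.4 in B-KO libraries (0.80 ± 0.17). Fgl2, a secreted immune regulator, had 12.8, 14.4 and 11.3 RPKM in WT and 60.4, 53.7 and 20.7 in B-KO libraries (1.60 ± 0.35). Nt5e, Ppapdc1b, Hmgn3, Car13 and Ccrn4l complete the 10, at log2 fold changes of 0.58 to 1.66. In all 10 genes the groups did not overlap, which a choice by smallest p in the same libraries favors, so it is no further evidence. Among the 5 largest differences without overlap was Prg2, an eosinophil granule protein, at 1.58, 7.96 and 5.78 RPKM in WT and 106, 77.2 and 23.6 in B-KO libraries (3.45 ± 0.90), followed by Gstt1, Igj, Mef2b and Fam46c, a poly(A) polymerase of plasma cells. The minimum of 10 RPKM can be met by libraries of a single genotype, which favors genes that differ. Gstt1, Lefty1 and Prg2 met it through the B-KO libraries alone, so their place in these rankings is no further evidence.

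Lower genes differed by less. The 10 of smallest p with a negative fold change ran from -0.20 to -0.63 on the log2 scale and had unadjusted p of 0.00863 to 0.0226. Zfp62, a zinc finger protein, came first, at 282, 257 and 288 RPKM in WT and 235, 231 and 237 in B-KO libraries (-0.23 ± 0.07). Pde7a, a phosphodiesterase that breaks down cAMP, had 386, 398 and 423 RPKM in WT and 304, 371 and 359 in B-KO libraries (-0.23 ± 0.08). Brwd1, a chromatin reader needed for early B cell development in mice, had 323, 346 and 338 RPKM in WT and 269, 298 and 311 in B-KO libraries (-0.20 ± 0.08). In these 3 genes no B-KO library reached a WT library, and all 3 had adjusted p between 0.87 and 0.96. The others were Tcea2, Zscan20, Lrrc51, AI848285 and Tfdp2, which separated, and Crisp3 and 2810002D19Rik, which did not. Here too the choice by smallest p favors separated groups. Nedd4, a ubiquitin ligase, was among the 5 largest differences without overlap, at 168, 145 and 187 RPKM in WT and 79.0, 137 and 139 in B-KO libraries (-0.53 ± 0.24).

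Activation genes had a positive median and no call. Of 29 tested genes induced by CD40 or B cell receptor signals, 25 had a positive log2 fold change with a median of 0.19, 6 had an unadjusted p under 0.05 and 8 separated. The shares over all genes tested were 57%, 4.06% and 6.35%. Gadd45b, a stress and NFκB response gene, had 116, 143 and 117 RPKM in WT and 199, 171 and 153 in B-KO libraries (0.47 ± 0.12, adjusted p = 0.699). Bcl2a1b, a copy of the survival gene A1, had 93.2, 133 and 143 RPKM in WT and 151, 184 and 176 in B-KO libraries (0.48 ± 0.17). Both separated, and reads of the near-identical Bcl2a1 copies cannot be assigned with certainty. Without B-KO replicate 3, Fas and Kcnn4 of this list passed the adjusted threshold and the median was 0.31, against 0.12 without B-KO replicate 1. Of 40 interferon-stimulated genes 20 were positive and the median was -0.01. Within that list Psmb8, an immunoproteasome subunit, had 1396, 1417 and 1381 RPKM in WT and 1714, 1589 and 1650 in B-KO libraries (0.24 ± 0.07), and Tgtp1 had 1.87, 3.38 and 2.28 in WT and 5.24, 17.4 and 18.2 in B-KO libraries (1.91 ± 0.39). Both were higher in every B-KO library, and Tgtp1 was highest in replicates 2 and 3. The lists of B cell receptor signaling, migration receptors, T cell help, cholesterol synthesis and miRNA machinery had medians between -0.03 and 0.06, the BCL2 family 0.10 and glycolysis 0.18, the last with library medians of 0.36, 0.13 and 0.01 in B-KO replicates 1, 2 and 3 and a median of 0.053 without replicate 1.

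Markers of other cells moved with the genotype in some libraries. Of 19 tested erythroid genes 18 had a positive log2 fold change, the median was 1.01 and 12 separated with B-KO above WT. Over all genes tested 57% were positive and 6.35% separated in that direction. Hba-a1, a globin gene with a near-identical copy, had 154, 146.3 and 129 RPKM in WT and 386, 227 and 365 in B-KO libraries. The summed level of the list was 1032 to 1239 RPKM in WT and 2612, 1511 and 2440 in B-KO libraries, so that B-KO replicate 3, in which S1pr2 and Gcsam were within the WT range, had erythroid transcripts as high as replicate 1. Neutrophil genes were high in B-KO replicate 1 alone, with a summed level of 445 RPKM against 12.5 to 83.5 in the 5 other libraries. S100a8, a calcium-binding protein of neutrophils, reached 143 RPKM there, against 5.08 to 23.8 elsewhere, and the granule enzyme Mpo 13.8 against at most 0.259. NK cell genes summed to 188, 330 and 522 RPKM in WT and to 177, 211 and 366 in B-KO libraries, and T cell genes to 230 to 311 in WT and 288 to 360 in B-KO libraries, both with overlap, although Cd3g, a T cell receptor component, reached 24.1 RPKM in B-KO replicate 2 against at most 4.73 in the others. The part of these cells in the gene differences above was not tested.

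The difference between B-KO and WT was set against the same difference among sorted GC B cells with a single limma interaction term. No gene was called (0%), and 434 genes (3.3%) had an unadjusted p under 0.05. The naive and GC differences share no library. The Y-linked gene Eif2s3y did not exceed 0.248 RPKM in any naive library but had 170 ± 295 RPKM in WT and 228 ± 212 in B-KO GC libraries (SD, n = 3), so that the GC groups were not uniform in sex-linked genes, and the part of this in the comparison was not tested. The GC identity list, at a median of 0.83 in naive cells, had -0.07 between B-KO and WT GC B cells with 6 of 23 genes positive (58.8% of all genes were), and the mitosis list had 0.76 and -0.08. Interferon-stimulated genes had medians of -0.01 and 0.77, positive in 20 and in 40 of 40 genes. Other lists had the same direction in both cell types. Genes of memory, B1 and T-bet-positive B cells had medians of 0.45 and 0.51, positive in 20 and in 21 of 22 genes. Plasma cell genes had 0.38 and 0.22, positive in 15 of 18 genes in both. For Nt5e the naive difference of 1.66 stood beside 0.21 in GC B cells, a difference of -1.45 with an adjusted p of 1, and without naive B-KO replicate 3 this difference was -2.00 and passed (adjusted p = 0.0176), as did that of Kcnn4 (-0.98, adjusted p = 0.0376).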

How the data were processed

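RNA of 12 libraries of sorted mouse spleen B cells was sequenced, 3 in each of 4 groups. GEO's molecule field reads total RNA, whereas the study's methods describe poly-A RNA-seq. The authors aligned reads with STAR (2.2.0c in the submitters' processing notes) and used HOMER for RPKM values of RefSeq transcripts, ignoring strand, so that overlapping and antisense genes cannot be told apart. The table header names mm10, and the processing notes name mm9 and mm10. The deposited RPKM are per kilobase and per 10000000 assigned reads. Reads recovered from them were whole within 0.1 for 100% of values checked, and totals include repeats on further transcripts of a gene (37.6%). Depth gives the counting error only, and p-values measure the spread between these samples.

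Per symbol the row of highest mean over 12 libraries was kept if it had at least 200 bases, which left out 1255 of 24063 symbols. limma 3.58.1 (R 4.3.3) was run on log2(RPKM + 1), with a mean for each of 4 groups and a trended prior, on 8 residual degrees of freedom, 2-sided, adjusted by Benjamini-Hochberg over 13167 genes at 0.05. The same steps were run on simulated reads, drawn independently with a common spread for all genes. That simulation held no shift shared by many genes of a library, so it cannot show how the test performs on these libraries. List members were described by counts and medians, with library values relative to the WT mean. Of 684 entries in 33 lists, 679 were in the table and 648 were tested, and 3 were matched by older symbols through RefSeq. Members and lists were chosen with earlier results of these data known. Named genes are those around which the study built its naive comparison, the 10 genes per direction of smallest p, the 5 per direction of largest difference without overlap (both at 10 RPKM in 3 naive libraries), and up to 4 genes of smallest p and 2 of highest level per list, with cell type markers. Mki67, Tbx21, Cd93, Efnb1 and Cdc6 were named beyond these and chosen after their values were seen. Seed matches were read from the longest 3′ UTR of each gene in GENCODE vM21 (GRCm38), which need not be that of the transcript whose RPKM was used. Alternatives were other scalings, pseudocounts, filters, transcripts, libraries, weights, limma voom on recovered reads and a replicate block. The length limit on 3′ UTRs was chosen after seeing the data. Results of some genes are not reported here.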

Additional observations from a re-analysis of the deposited data

How the results depend on the processing

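Most values kept their direction and stayed below the threshold. Of the values of 74 named genes under 17 alternatives, 1196 did so, 42 passed the adjusted threshold (26 with array quality weights, 15 without B-KO replicate 3 and 1 without B-KO replicate 1) and 20 changed sign. Of the list medians, 528 moved by less than the SD of that list's 3 B-KO library medians and 33 by more. This SD is large where the B-KO libraries differ among themselves. The GC identity and mitosis medians, 0.50 and 0.41 without B-KO replicate 1 against 0.83 and 0.76, thus counted among those that moved by less. Counts of genes called higher and lower were 0 in each setting other than those named here. They were 128 and 4 with array quality weights, and leaving out single libraries gave 0 to 55 genes called higher and 0 to 2 genes whose genotype difference differed from that in GC B cells. The cause was not tested.

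The 20 changes of sign were in genes that passed no adjusted threshold. On the log2 scale Traf6 was -0.011 and Nfkbia -0.015 with median-of-ratios scaling, and -0.00883 and -0.00891 with quantile normalization. With array quality weights Cd40 was 0.041, Nfkbia -0.069, Lmo2 0.032 and Sdc1 0.037. Leaving out single libraries gave -0.075 to 0.058 for Cd40, -0.035 to 0.062 for Nfkbia, -0.19 to 0.049 for Bcl6, -0.092 to 0.078 for Lmo2, -0.45 to 0.13 for Sdc1, -1.12 to 0.13 for Cd93 and -0.11 to 1.83 for Mpo.

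Genes at an unadjusted p under 0.05, 535 higher and 70 lower, were 356 and 191 after quantile normalization, 470 and 106 with median-of-ratios scaling, 653 and 168 without a filter, 443 and 41 at a minimum of 5 RPKM, 600 and 108 with naive libraries alone, 1524 and 363 with array quality weights, 283 and 53 without B-KO replicate 1, 926 and 155 without B-KO replicate 3 and 316 and 59 without WT replicate 1. With the replicate number as a block, 0 genes were called and 396 and 44 had an unadjusted p under 0.05. Naive WT and B-KO libraries of the same number deviated together with correlations of 0.0392, 0.0415 and 0.0815, all under 0.1. Naive libraries of unlike number gave -0.0978 to 0.062, and GC libraries of the same number gave 0.057, -0.503 and -0.694. So few pairs cannot decide whether the numbers pair the samples, and the main test did not use the numbers.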
